A study of Arabidopsis thaliana with 12 samples.

Results

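The 60 genes described here gave the brightest signals of wild-type (WT) Arabidopsis thaliana on an array, among the features assigned to exactly 1 gene. The 692 features assigned to 1 gene, which stand for 691 distinct genes, were ranked by the mean of the 6 deposited WT columns, and the genes were selected on these values as the 70 brightest. The rule of choice then left out 10 of these, among them PSBW, PSB27, PSBY, LHB1B2, PSAN and NdhS of the photosynthetic membrane, and 60 remained. WT plants were of ecotype Columbia 0, and they were compared with the pete1 pete2 double mutant in the same ecotype, which lacks both isoforms of plastocyanin. Both were grown on MS medium, a mineral medium for plant culture, and the labels give neither the tissue nor the age of the plants nor the kind of mutation. Total RNA was measured in 12 columns, 6 for each genotype.

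Plastocyanin, a small protein that binds copper, moves electrons through the thylakoid lumen from the cytochrome b6f complex to photosystem I. Electrons that leave photosystem I reduce ferredoxin and then NADP, and the chloroplast can export surplus reducing power as malate. Most chloroplast proteins are encoded in the nucleus, and their transcripts are known to respond to light, redox state, hormones and the circadian clock. The brightness of a feature depends on its probe as well as on its transcript, so the ranking describes features of this array and is not an order of transcript abundance. Since the genes were chosen by their WT values, the WT levels below are a description.

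The table held 3439 features, with 870 assigned to several genes and 1877 absent from the annotation. Column totals lay between 3493 and 3778 relative units and column medians between 0.341 and 0.659, and the 60 genes held between 6.03% and 9.13% of a column's total. Within each genotype column 1 resembled column 2, column 3 resembled 4 and column 5 resembled 6, and for all 12 columns this partner was the nearest of the others. Over the 60 genes the median absolute log2 difference was between 0.0546 and 0.106 within pairs and between 0.213 and 0.557 between pairs of 1 genotype. Such a pair was therefore treated as a single replicate by averaging (n = 3 in each genotype), and the levels below are quantile-normalised intensities of these pairs in the order 1-2, 3-4 and 5-6. Precision is limited by the small number of arrays. Of 12 markers of green tissue 1 was measured by a feature of its own, and of 9 markers of root 0 were, so the share of green tissue was not checked.

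The signal of the 60 genes fell steeply with rank. After normalisation 6 genes had a mean WT level above 10, and 46 of the 60 lay below 3. At the threshold of the rule the values were close to each other: AT2G39360 and AT2G26110, the last genes taken, had mean deposited WT values of 1.58 and 1.57, and AT1G50880 and AT5G17630, the first ones not taken, had 1.54 and 1.54. None of the 60 reached the top of the scale and none was listed at 0 in any column. Of the 60 genes, 6 are named here, and the other 54 are referred to by locus with no role. The gene table used here gave those 54 no symbol, which does not mean that no name or role is known for them. The gene table gave the named genes a symbol beyond the locus identifier, apart from AT5G58330. That gene is listed there by its locus and was added to the named ones by hand and not by a rule.

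**Figure D1:**
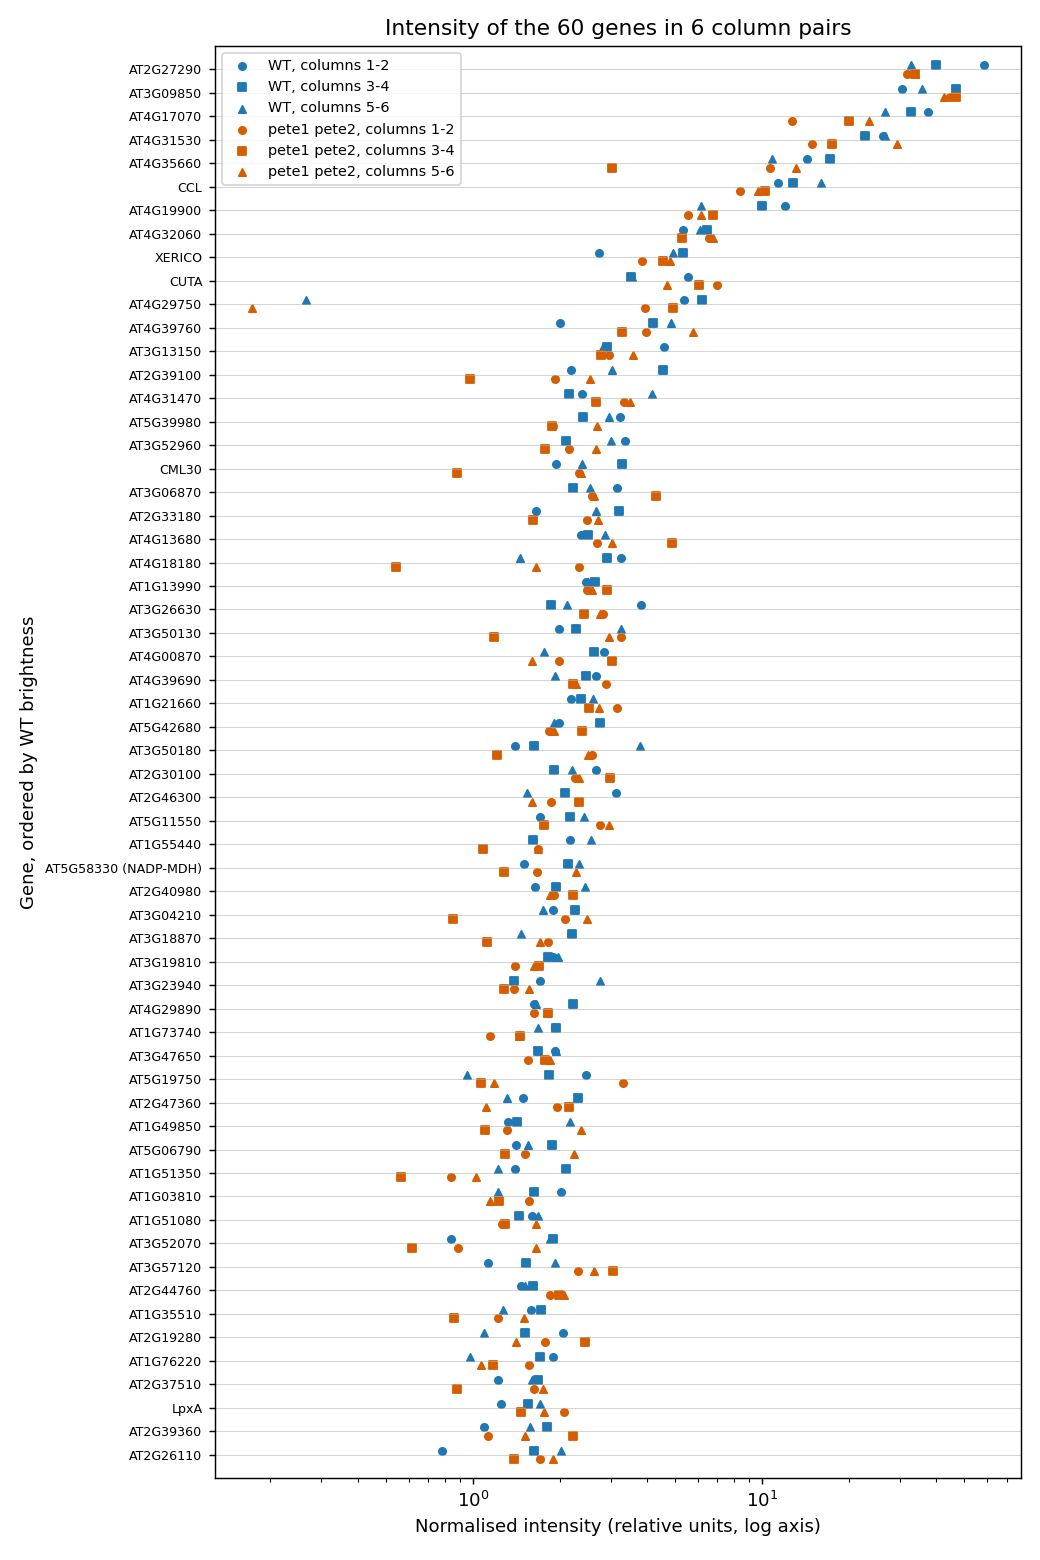
Normalised intensity (relative units, log axis) of the 60 genes, ordered by WT brightness, with WT in blue and pete1 pete2 in orange and 1 point for each of 3 column pairs. Points of the genotypes overlap for all but 7 genes, and AT4G29750 has a point far to the left in both genotypes.

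The 6 named genes belong to separate processes, and none passed the test between genotypes. Limma gave adjusted p-values between 0.594 and 1 for them. CCL had lower normalised values in all mutant pairs and CUTA a higher mean, and the mutant values of XERICO, CML30, NADP-MDH and LpxA overlapped with those of WT.

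CCL, named as CCR-like and known for a transcript under the control of the circadian clock, was the brightest of the named genes. Its levels were 11.3, 12.8 and 15.9 in WT and 8.40, 10.3 and 9.69 in the mutant. After quantile normalisation all mutant values lay below all WT values, but the deposited values overlapped, with 10.7 and 12.7 in mutant columns 5 and 6 and 8.82 and 10.3 in WT columns 1 and 2. The means were 13.3 ± 2.36 and 9.45 ± 0.952 (SD, n = 3), and limma gave a log2 difference of -0.49 (SE 0.17) at an adjusted p of 0.594. The difference was -0.36 with values as deposited and -0.084 with median centring, which divides each column by its median. In a limma fit of 12 unaveraged columns, where the members of a pair are treated as independent, the adjusted p was 0.0454.

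CUTA is a homologue of the bacterial CutA proteins and is known as a copper-binding protein of the chloroplast. Its levels were 5.53, 3.52 and 3.56 in WT and 6.9996, 6.04 and 4.69 in the mutant. After quantile normalisation the WT pair 1-2 lay above the mutant pair 5-6, and the other mutant values lay above all of WT. The means were 4.20 ± 1.15 and 5.91 ± 1.16 (SD, n = 3), and limma gave a log2 difference of 0.51 (SE 0.25) at an adjusted p of 0.865. All mutant pairs of CUTA lay above all WT pairs with values as deposited, median centring and scaling of columns to their total. The log2 differences there were 0.61, 0.88 and 0.62. Single deposited columns still overlapped, with 4.90 in WT column 4 and 4.80 in mutant column 3. Columns 3 and 4 of WT did not agree for this gene, with deposited values of 2.64 and 4.90.

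The gene AT5G58330 encodes NADP-dependent malate dehydrogenase (NADP-MDH), the stromal enzyme that is switched on by thioredoxin in the light and makes malate for export of reducing power. Its levels were 1.498, 2.13 and 2.33 in WT and 1.67, 1.29 and 2.27 in the mutant. The groups overlapped, and only the mutant pair 3-4 lay below the WT range. Limma gave a log2 difference of -0.20 (SE 0.28) at an adjusted p of 1. The difference was 0.0076 with median centring and -0.0060 without mutant pair 3-4.

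XERICO, a RING-H2 zinc finger protein that raises abscisic acid levels when overexpressed, had levels of 2.74, 5.31 and 4.91 in WT and 3.85, 4.53 and 4.80 in the mutant. All mutant values lay within the WT range. The log2 difference was 0.08 (SE 0.29). CML30, a calmodulin-like calcium-binding protein, had levels of 1.94, 3.28 and 2.38 in WT and 2.33, 0.881 and 2.37 in the mutant. Only the mutant pair 3-4 lay below the WT range, and the log2 difference of -0.55 (SE 0.47) became -0.075 without it. LpxA is the homologue of the bacterial acyltransferase that starts the synthesis of lipid A. Its levels were 1.25, 1.55 and 1.71 in WT and 2.07, 1.46 and 1.76 in the mutant, with a log2 difference of 0.23 (SE 0.19).

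**Figure D2:**
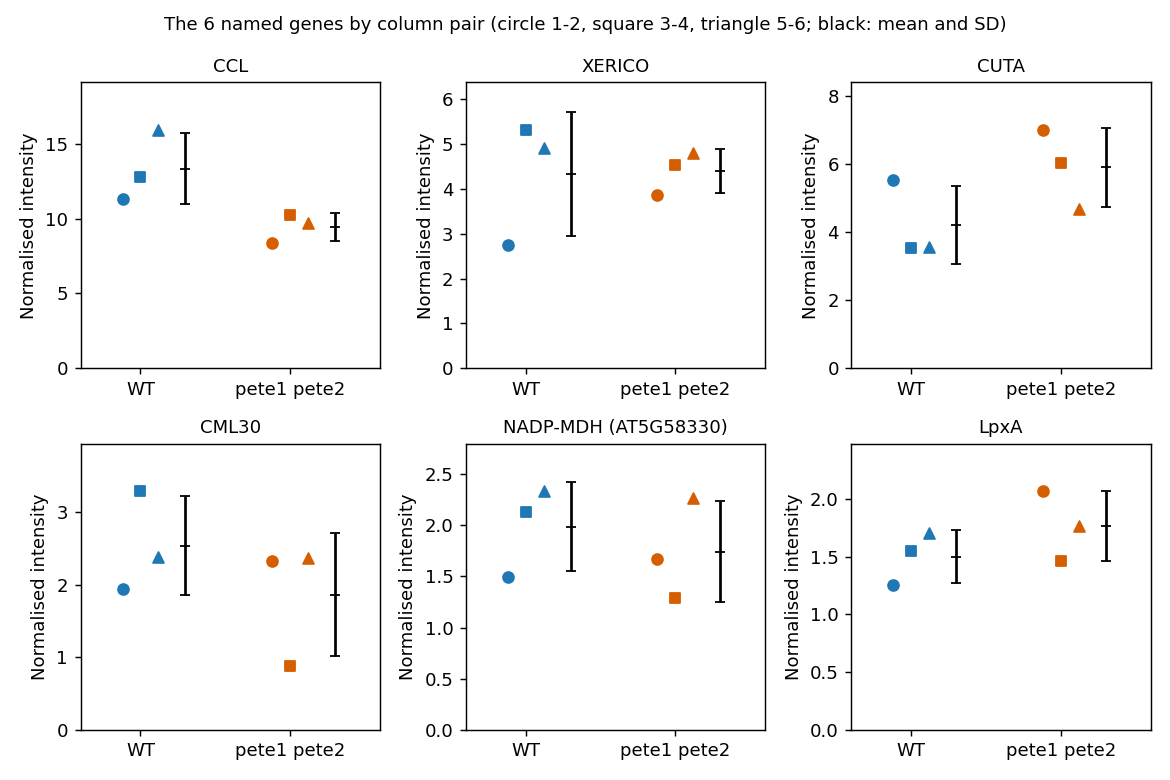
Normalised intensity of the 6 named genes in each column pair (circle 1-2, square 3-4, triangle 5-6), with WT in blue, pete1 pete2 in orange, and the mean and SD of 3 pairs in black. After this normalisation the values of CCL do not overlap between genotypes and those of the other 5 genes do. In the deposited values CCL overlaps, while the pair means of CUTA do not.

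Among the 54 genes referred to by locus here, the brightest were AT2G27290, AT3G09850, AT4G17070 and AT4G31530. AT2G27290 had levels of 58.4, 39.9 and 32.7 in WT and 31.6, 33.9 and 33.9 in the mutant. Its mutant values were close together and the WT pair 1-2 stood above all others. The log2 difference of -0.36 (SE 0.23) turned to 0.059 with the values as deposited, 0.075 with scaling to the total and 0.33 with median centring. Quantile normalisation gives the brightest features of every column values from 1 shared set, and some of these levels are therefore equal.

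AT3G09850 had levels of 30.4, 46.8 and 35.6 in WT and 44.6, 46.8 and 42.5 in the mutant, with a log2 difference of 0.27 (SE 0.18) that was 0.69 with values as deposited and 0.96 with median centring. It ranked second of the single-gene features in WT and first in the mutant. AT4G17070 had levels of 37.5, 32.7 and 26.6 in WT and 12.7, 19.9 and 23.4 in the mutant. After quantile normalisation all mutant values lay below WT, with means of 32.3 ± 5.47 and 18.7 ± 5.47 (SD, n = 3), and limma gave a log2 difference of -0.82 (SE 0.28) at an adjusted p of 0.594. The deposited values overlapped, with 30.9 and 28.0 in mutant columns 5 and 6 and 27.0 and 27.4 in WT columns 1 and 2. The difference was -0.49 with values as deposited, -0.22 with median centring and -0.52 without mutant pair 1-2. AT4G31530 had levels of 26.2, 22.7 and 26.6 in WT and 14.9, 17.4 and 29.2 in the mutant. Its mutant pair 5-6 was the highest of all pairs, and the log2 difference of -0.35 (SE 0.28) became 0.24 with median centring.

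AT4G35660 had levels of 14.3, 17.1 and 10.8 in WT and 10.7, 3.03 and 13.1 in the mutant. The mutant pair 3-4 was far below every other pair, and the log2 difference of -0.88 (SE 0.62) became -0.22 without it. AT4G19900 had levels of 11.975, 9.999 and 6.16 in WT and 5.53, 6.75 and 6.16 in the mutant, with a log2 difference of -0.56 (SE 0.28) that was -0.16 with median centring. The mutant values were again close together while WT pairs 1-2 and 3-4 lay above them and WT pair 5-6 lay within their range. AT4G32060 had levels of 5.34, 6.47 and 6.08 in WT and 6.54, 5.28 and 6.75 in the mutant, with a log2 difference of 0.050 (SE 0.14).

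Compared between genotypes, none of the 60 genes passed limma's test (Benjamini-Hochberg adjusted p under 0.05) in either direction. The smallest adjusted p was 0.499, that of AT2G44760. Over all 3438 tested features 0.0291% were called higher and 0% lower. At an unadjusted p under 0.05, 2 of the 60 were higher and 5 lower, or 3.33% and 8.33%, beside 4.71% and 2.76% of all features. The choice by high WT values leaves the differences open to a downward shift, so these shares are not alike. Of the 70 brightest single-gene features by WT values 5 were higher and 5 lower. Of the 61 that reached the same brightness by mutant values 8 were higher and 2 lower. The count of lower genes was not stable: it was 3 with values as deposited, 0 with median centring, 0 without WT pair 3-4, 1 without WT pair 1-2 (where 4 were higher), 1 without mutant pair 1-2 and 3 without mutant pair 3-4. The shares of all features under these settings were not taken, so the changes in count are not shown to be particular to the 60 genes. Treating the 12 columns as separate samples called 2 of the 60 higher and 4 lower, beside 150 and 75 of all 3438 features. Keeping the pairs as a random block in those columns called 0 and 0 of the 60, beside 15 and 4 of all 3438 features. Whether the samples are separate plants or cultures is not in the labels, so the p-values reflect the spread between these pairs alone, and that spread may be technical.

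The same 7 genes had groups that did not overlap after quantile normalisation. All mutant pairs lay above all WT pairs for 2 genes, AT3G57120 and AT2G44760, where 5.56% of all features did so. All mutant pairs lay below for 5 genes, AT4G17070, CCL, AT3G19810, AT1G73740 and AT1G51350, where 4.36% of all features did so. Other scalings, tried after the data were seen, changed this set. With values as deposited 4 genes lay above and 4 below, beside 2.94% and 7.39% of all features, and with median centring 4 lay above and 0 below, beside 4.62% and 3.78%. With scaling to the total 3 lay above and 3 below, beside 3.08% and 7.27%. AT3G57120 was above WT in every scaling tried, and AT4G17070 and CCL were below WT after quantile normalisation only. The genes were chosen by high WT values, and the same values enter the differences between genotypes, which are therefore open to a downward shift.

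AT3G57120 had the highest log2 difference of the 60 genes. Its levels were 1.13, 1.53 and 1.92 in WT and 2.30, 3.05 and 2.62 in the mutant, with means of 1.52 ± 0.396 and 2.66 ± 0.373 (SD, n = 3). The log2 difference was 0.83 (SE 0.24) with a limma adjusted p of 0.543, and it moved between 0.65 and 1.02 when 1 pair was left out. AT2G44760 had levels of 1.46, 1.61 and 1.51 in WT and 1.85, 1.99 and 2.07 in the mutant. The spread in both genotypes was among the smallest of the 60 genes, and the log2 difference of 0.36 had the smallest SE, 0.087. The other genes with the largest positive differences were CUTA, above, and AT4G13680, at 2.36, 2.50 and 2.87 in WT and 2.70, 4.87 and 3.02 in the mutant. For AT4G13680 the log2 difference of 0.41 (SE 0.26) became 0.16 without the mutant pair 3-4. AT1G21660 had levels of 2.19, 2.37 and 2.59 in WT and 3.15, 2.53 and 2.72 in the mutant, a log2 difference of 0.23 (SE 0.12), and the groups overlapped only through WT pair 5-6 and mutant pair 3-4.

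AT1G51350 had the lowest log2 difference. Its levels were 1.40, 2.10 and 1.23 in WT and 0.844, 0.563 and 1.02 in the mutant, with means of 1.58 ± 0.463 and 0.810 ± 0.233 (SD, n = 3). The log2 difference was -0.96 (SE 0.32) with a limma adjusted p of 0.586, and it lay between -1.13 and -0.73 when 1 pair was left out. AT1G73740 had levels of 1.93, 1.94 and 1.68 in WT and 1.15, 1.46 and 1.45 in the mutant, a log2 difference of -0.46 (SE 0.14). AT3G19810 was among the steadiest genes in WT, at 1.89, 1.82 and 1.96, and measured 1.40, 1.69 and 1.62 in the mutant, a log2 difference of -0.27 (SE 0.10). In both genes every mutant value lay below the lowest WT value after quantile normalisation and in the values as deposited, but not with median centring.

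The other genes with the largest negative differences, AT4G35660 above among them, became less negative without the mutant pair 3-4. AT4G18180 had levels of 3.24, 2.90 and 1.45 in WT and 2.33, 0.541 and 1.66 in the mutant, and its log2 difference of -0.90 (SE 0.66) became -0.29 without that pair. AT2G39100 had levels of 2.19, 4.53 and 3.02 in WT and 1.93, 0.979 and 2.54 in the mutant, and its log2 difference of -0.88 (SE 0.46) became -0.50 without that pair and -0.60 without WT pair 3-4. Mutant pair 3-4 was the lowest of the 6 pairs for 22 of the 60 genes, or 36.7%, and for 22.1% of all features. Its columns also had the highest medians among the mutant columns, 0.659 and 0.659, and the lowest shares of the total in the 60 genes, 6.03% and 6.21%, and the part of these in the results was not tested.

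**Figure D3:**
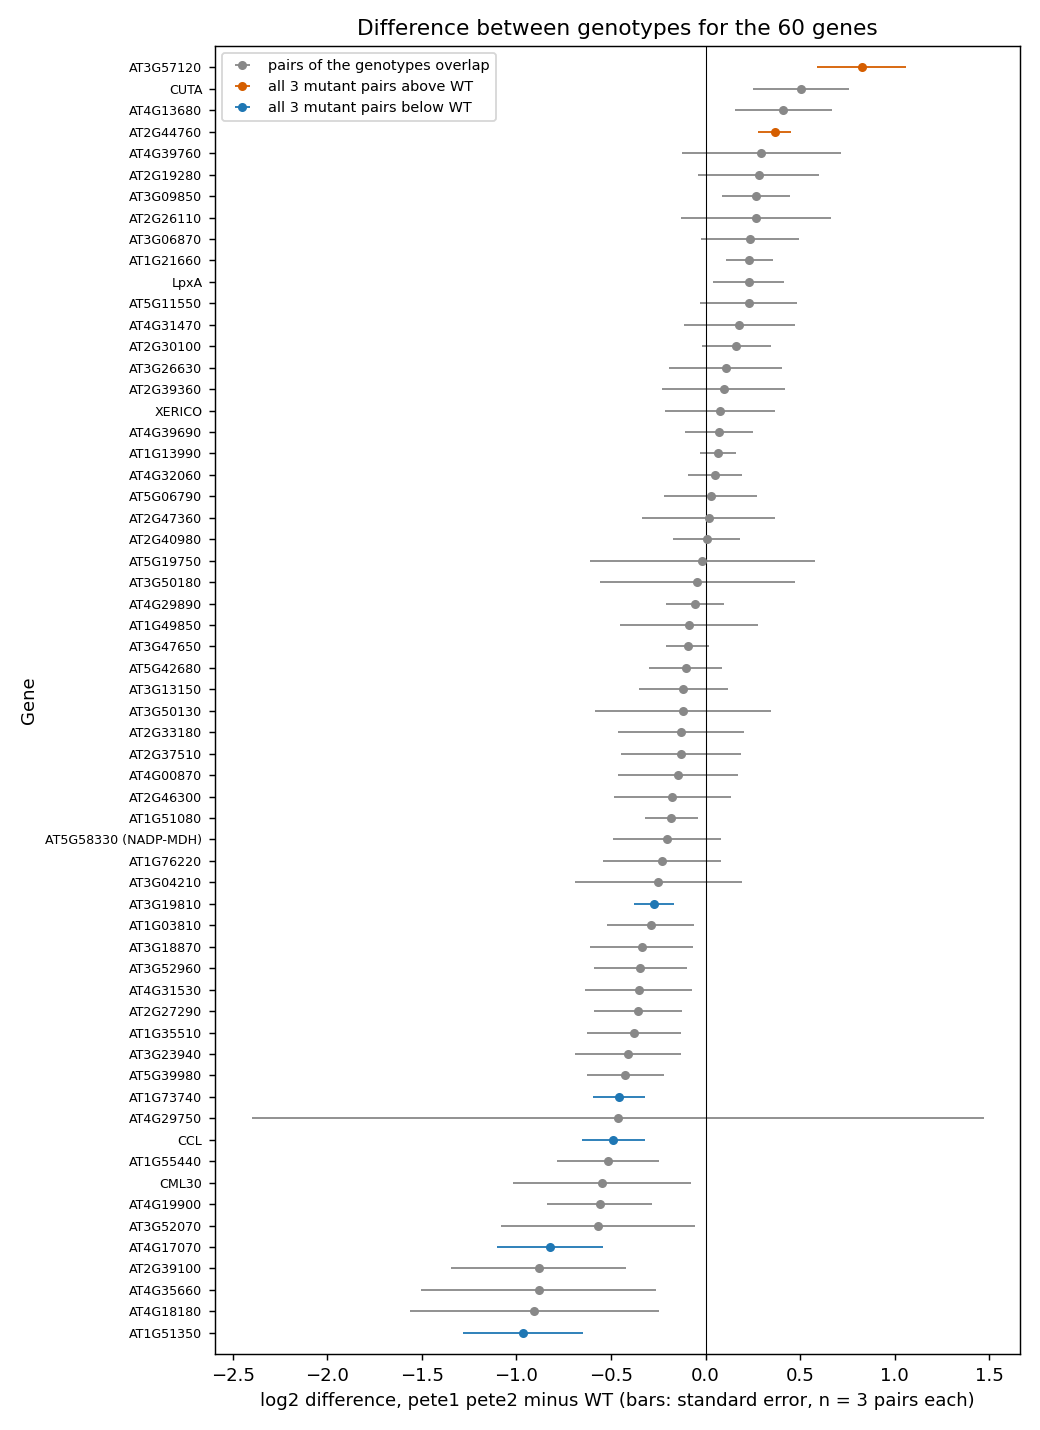
Log2 difference between pete1 pete2 and WT for the 60 genes, with the standard error of limma (n = 3 pairs per genotype) as bars and colour for genes whose groups do not overlap. The values run from -0.96 for AT1G51350 to 0.83 for AT3G57120, and AT4G29750 has by far the widest bar, with an SE of 1.93.

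The remaining 34 genes outside the naming rule had log2 differences between -0.57 and 0.30 and limma adjusted p-values of 0.840 or more. Of these 34, 12 had a positive and 22 a negative difference, and the groups overlapped for all of them. Their mean levels were between 1.49 and 3.68 in WT and between 1.05 and 4.34 in the mutant. They are AT4G39760, AT3G13150, AT4G31470, AT5G39980, AT3G52960, AT3G06870, AT2G33180, AT3G26630, AT3G50130, AT4G00870, AT4G39690, AT5G42680, AT2G30100, AT2G46300, AT5G11550, AT1G55440, AT2G40980, AT3G04210, AT3G18870, AT3G23940, AT4G29890, AT3G47650, AT5G19750, AT2G47360, AT1G49850, AT5G06790, AT1G03810, AT1G51080, AT3G52070, AT1G35510, AT2G19280, AT1G76220, AT2G37510 and AT2G39360.

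Of the 60 genes, 37 had a negative and 23 a positive log2 difference after quantile normalisation, beside 51.2% and 48.8% of all features, while 23 of the 60 were negative with median centring. The choice by high WT values leaves these differences open to a downward shift, so an excess of negative ones is not a result about the genes. The median was -0.12 over the 60 genes and -0.0092 over all features, and that over the 60 became 0.098 with median centring. The median also differed with the genotype used to choose bright features. Of all features, 403 had a mean deposited WT value at or above that of the gene ranked 70, and their median log2 difference was -0.11. With the same limit set on the mutant values, 349 features were taken and their median was 0.033. With the limit set on the mean of all 12 columns, 379 features were taken and their median was -0.032. With median centring the 3 medians were 0.13, 0.28 and 0.21, all positive.

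The mutant columns, which the rule did not use, ranked largely the same genes at the top. Of the 60 genes, 51 were among the 70 brightest single-gene features by the mutant mean. The other 9 ranked between 74 and 178 there, and their WT ranks were between 48 and 67. AT1G51350, ranked 58 in WT, was the one at 178, and AT3G52070, at 61 in WT, ranked 117. In the other direction AT3G57120 moved from 62 to 26.

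**Figure D4:**
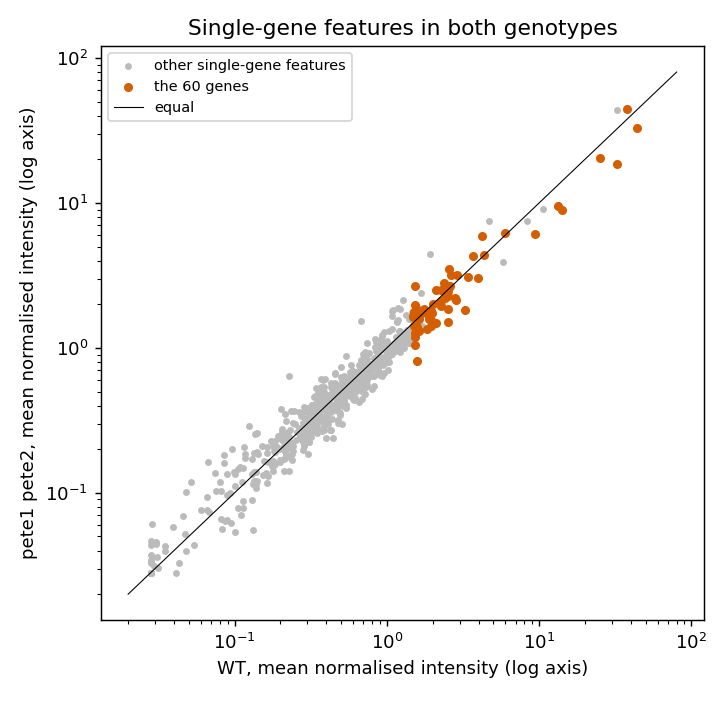
Mean normalised intensity of single-gene features in WT and pete1 pete2 (both log axes, n = 3 pairs each), with the 60 genes in orange, other single-gene features in grey and a line of equal values. The 60 genes lie along the line, with AT1G51350 lowest in the mutant, at 0.810.

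The 60 genes differed in how steady they were. Within pairs they agreed more closely than features at large, with a median absolute log2 difference of 0.0747 beside 0.117 over all features. The 60 genes were chosen as bright, while all features include dim ones, with between 170 and 264 values at 0 in a column. Equally bright features were not set beside them, so the closer agreement is not shown to be particular to these genes. Between pairs the median SD of the log2 level was 0.346 over WT pairs, beside 0.321 for all features, and 0.294 over mutant pairs, beside 0.349. AT1G13990 was the steadiest in WT, at 2.47, 2.63 and 2.50, and measured 2.49, 2.92 and 2.58 in the mutant, with a log2 difference of 0.067 (SE 0.095).

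At the other end, AT4G29750 had levels of 5.37, 6.20 and 0.265 in WT and 3.95, 4.94 and 0.172 in the mutant. Pair 5-6 was the low one in both genotypes, and the highest WT pair was 23.4-fold above the lowest. The log2 difference of -0.46 (SE 1.93) took values from -1.94 to 1.04 when 1 pair was left out, and these extremes are those in which pair 5-6 was left out of 1 genotype alone. Within each of the same-numbered pairs the mutant value was below that of WT. AT3G50180 had levels of 1.40, 1.62 and 3.77 in WT and 2.58, 1.21 and 2.50 in the mutant. AT2G26110 had levels of 0.785, 1.63 and 2.02 in WT and 1.70, 1.39 and 1.90 in the mutant. Both had log2 differences, -0.043 (SE 0.52) and 0.27 (SE 0.39), that changed sign when 1 pair was left out.

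AT5G19750, chosen after its values were seen, departed within a pair instead. Its deposited values were 0.480 in WT column 5 and 0.466 in mutant column 5, while column 6 held 2.03 and 2.20. Its other WT columns lay between 1.87 and 2.46 and its other mutant columns between 1.19 and 3.33. The low column thus had the same number in both genotypes. On normalised values CUTA was the only other gene of the 60 with a gap of more than 1 (log2) within a pair, between WT columns 3 and 4 at 2.45 and 5.05. The deposited values there were 2.64 and 4.90, and the mutant columns 3 and 4 held 4.80 and 5.52. For AT4G29750 the deposited values in columns 5 and 6 were 0.273 and 0.290 in WT and 0.0867 and 0.0913 in the mutant, and between 4.07 and 6.32 in all other columns.

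**Figure D5:**
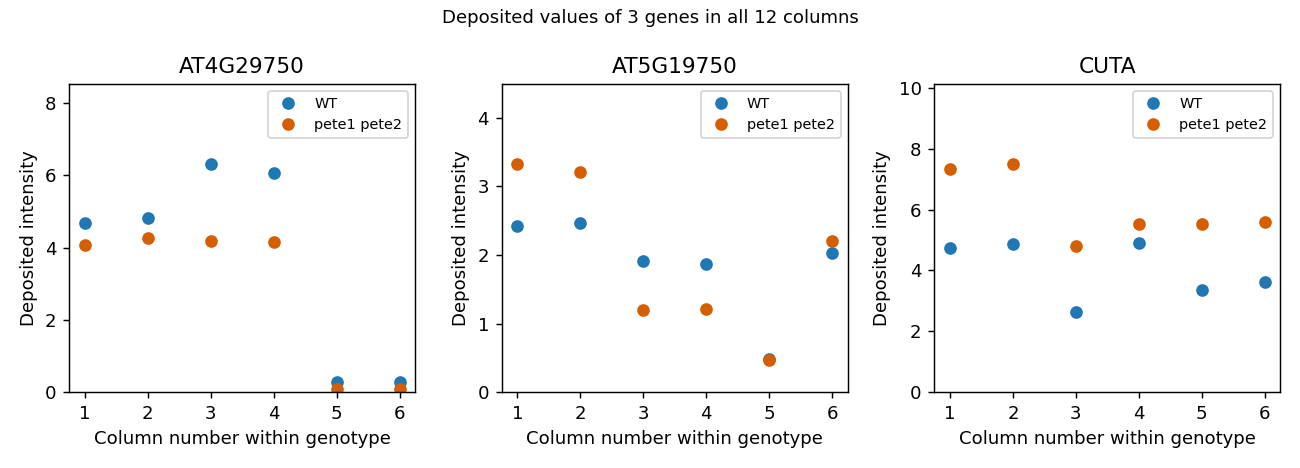
Deposited intensity of AT4G29750, AT5G19750 and CUTA in the 6 columns of WT (blue) and of pete1 pete2 (orange), 1 point per column. AT4G29750 is low in columns 5 and 6 and AT5G19750 in column 5 of both genotypes, and WT column 3 of CUTA, at 2.64, is not matched by the mutant.

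Position and length were compared with the other single genes. The length of the 60 genes in the TAIR10.1 gene table had a median of 1992.5 bases, beside 2145.5 over the 690 single genes with a length there. None of the 60 was next to another of them in the order of protein-coding genes, and 6 had another within 10 genes. On the array, the median WT level of the 10 features on each side by number was 0.557, beside 0.555 over all features. By feature number, the 60 genes made up 16% of the single-gene features from 2001 to 2500 and 11.9% of those from 2501 to 3000. They made up between 5.56% and 9.59% in the other blocks of 500 up to 4500. Whether these shares differ from an even placement was not tested. Of the 60 genes, 13 had another within 10 features, and no value for other genes was set beside this count. Of the 83 photosynthesis genes in 6 lists of loci, 7 were measured by a feature of their own, and 5 of these were among the 70 brightest but left out by the rule, so 0 were among the 60. Of the 7, 0 passed limma's test in either direction, with 0 at an unadjusted p under 0.05 and log2 differences from -0.62 to 0.46. Another 10 lists were made by keyword, which can match only genes with a descriptive name or synonym, so they say little of the 54 genes referred to by locus. They found 10 genes in all, in the lists of proteases, redox proteins, kinases, transcription factors and glycosyl hydrolases, and none for ribosomal proteins, histones, tubulin and actin, translation factors or transporters. Of the 10, 0 passed limma's test, with 1 at an unadjusted p under 0.05.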

How the data were processed

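Linear intensity values of 3439 features in 12 columns were used as deposited by the authors. The values ran from 0 to 100 with column means near 1, and how they were scanned, background corrected and normalised is not given in the sources used here. Samples were grouped by title, per the labels. Columns were quantile normalised, a floor of 0.0281 was set at the 1st percentile of all positive values, log2 was taken and each pair of closely agreeing columns was averaged. Only 1 gene had several features, which were averaged, so 3438 features were tested. Levels are given on the linear scale as mean and SD of 3 pairs. Two-sided tests came from lmFit and eBayes of limma 3.58.1 (R 4.3.3), adjusted by Benjamini-Hochberg across the whole table, with a threshold of 0.05. The fit was also run on simulated independent pair values, where only the direction and mean size of set changes had to be recovered. Those values held no departures shared between same-numbered columns. Permuting 3 against 3 pairs gives no p under 0.1, so no permutation test was used.

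Names came from the platform annotation and the TAIR10.1 gene table, which matched 690 of 692 identifiers. The array's genome build is not given in the sources used here, so no coordinates are printed, and no sequences were used here. Full values were given for the 10 brightest genes, the 4 largest differences and 4 smallest p in each direction, the 3 smallest and 3 largest SD over WT pairs, and the genes with a name, 26 in all. AT5G19750 was singled out after its values were seen. The members, lists and tests were chosen with earlier results of these data known. As a check of pairing, the deviations of same-numbered pairs from their genotype means correlated across features with r of 0.33, -0.0026 and 0.38. The values of 0.33 and 0.38 show that some same-numbered pairs shared part of their deviations. The main fit did not use the numbers as pairs of samples, and the labels do not say what a number stands for. A fit with the replicate block, which takes same-numbered pairs together, was run as an alternative.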

Additional observations from a re-analysis of the deposited data

How the results depend on the processing

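No gene of the 60 passed limma's adjusted test under any alternative that used pair means, or with the pairs as a random block. With the 12 columns as separate samples 2 were higher and 4 lower, and over all features 150 were higher and 75 lower, beside 1 and 0 in the analysis reported; the adjusted p-values were 0.0264 for AT4G17070, 0.0215 for AT1G73740, 0.0226 for AT1G51350, 0.010 for AT3G57120 and 0.00366 for AT2G44760. Over all features the random block gave 15 higher and 4 lower, and the values as deposited, median centring, scaling to the total and the replicate block each gave 0 higher. Without the dimmest 50% there were 2 higher, and with array weights 1 lower. When 1 pair was left out, higher calls over all features ranged from 0 to 1 and lower calls from 0 to 1, the negative differences among the 60 from 34 to 41, and their median from -0.16 to -0.077. Members among the 70 brightest by mutant values ranged from 48 to 51.

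Median centring left 23 negative differences and a median of 0.098. The median over all features was -0.27 without scaling (values as deposited) and -0.26 when columns were scaled to their total, so the median of the 60, -0.17 and -0.16 there, lay above it. Of 442 single-gene values under the alternatives, 415 kept direction and side of the threshold, 6 passed in the fit of 12 columns and 21 changed sign, 11 of these when a pair was left out. Many of the 415 could not change direction. Dropping dim features, another variance model, the 12 columns, the random block and the replicate block all leave each difference as it was. AT2G27290 was at 0.059 with values as deposited, 0.075 with scaling to the total and 0.33 with median centring, where AT4G31530 and AT3G50180 were at 0.24 and AT5G58330 at 0.0076. With array weights XERICO was at -0.090, AT4G29750 at 0.41, AT1G13990 at -0.0054 and AT3G50180 at 0.20. When 1 pair was left out, AT4G32060 ranged from -0.030 to 0.15, XERICO from -0.23 to 0.26, AT1G13990 from -0.00069 to 0.12, AT4G29750 from -1.94 to 1.04, AT3G50180 from -0.33 to 0.41 and AT2G26110 from -0.14 to 0.54. Among bright features chosen by WT values or by all columns, the median was 0.13 and 0.21 with median centring. With the replicate block, which takes same-numbered pairs together, the difference of AT4G29750 had an SE of 0.111 and an adjusted p of 0.602, and no gene of the 60 passed. The cause was not tested. The dim filters cannot change a difference, and the description of promoters and proteins was not run. Dim features are limited by their signal over a background that is not given in the sources used here.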

Other observations

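Columns with the same number in both genotypes departed from their partner columns together, as AT5G19750 did. Over all 3438 features the log2 difference between columns 1 and 2 in WT correlated with that in the mutant with Pearson's r of 0.36. The correlation was 0.44 for columns 3 and 4 and 0.59 for columns 5 and 6. These are correlations across features, which are not independent replicates. Columns 5 and 6 differed by more than 1 (log2) for 74 features in WT and 141 in the mutant, and 46 of these were shared in the same direction and 0 in opposite directions. Columns 1 and 2 shared 39 of 66 and 190 features, with 0 opposite, and columns 3 and 4 shared 36 of 101 and 90, with 2 opposite. Both genotypes' pair 5-6 lay more than 2 (log2) below all other pairs for 10 features, 1 of them among the 60 genes, and pair 3-4 did so for 6 and pair 1-2 for 1. The labels do not say what a column number stands for.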
